A study of Macaca fascicularis with 64 samples.

Results

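The genes described here are 8 of the 28141 listed in the expression tables: the natriuretic peptide genes NPPA and NPPB, the striated muscle actins ACTA1 and ACTC1, and the cardiac stress genes FHL2, ANKRD1, NRAP and XIRP1. They were chosen because their levels differed in opposite directions between hearts labelled SIRT6 knockout (KO) and wild type (WT), and because ACTA1 also differed in other tissues. All 8 names were found in both tables. The heart comparison of these genes, and the KO comparison of ACTA1 in other tissues, therefore describe how the set was chosen, and they are given as values without a test.

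The tissues came from cynomolgus monkeys (Macaca fascicularis) and were profiled by bulk RNA sequencing for a study of SIRT6 deficiency and developmental retardation. SIRT6 is a sirtuin enzyme that removes acetyl groups from histones in the nucleus. The newborn set held 2 KO animals (KO2 and KO3, genotype given as SIRT6 mutant) and 2 WT animals (WT2 and WT3), with 2 libraries per animal from each of heart, muscle, brain, thymus, liver, kidney and lung. Fetal samples were wild-type muscle and brain only, with 2 libraries per tissue at gestation month 2 and 2 at month 4. The sources used here do not give the kind of mutation, the muscle, the heart chamber sampled or any treatment.

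Natriuretic peptides are hormones that heart muscle cells release when stretched. The precursor is cut by the protease corin or furin, the hormone acts through guanylyl cyclase receptors to relax vessels and promote salt loss, and a clearance receptor and neprilysin remove it. NPPA is active throughout the fetal heart and becomes largely atrial after birth, while NPPB marks ventricular strain. Skeletal actin (ACTA1) and cardiac actin (ACTC1) build the thin filaments of striated muscle, with cardiac actin prominent in immature skeletal muscle and later replaced by skeletal actin. The other genes encode proteins of the sarcomere and its anchoring sites that respond to load.

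Levels are in FPKM, fragments scaled by the length of a gene and by the mapped fragments of its library, so that genes can be set side by side. Values for 4 animals are the means of 2 libraries each, in the order KO2, KO3, WT2, WT3. Over the 67 pairs of libraries of 1 animal in which a gene of the set reached 10 FPKM, the median difference was 1.04-fold and the largest 1.46-fold, for NPPB. Tests were made with limma on log2(FPKM + 1), over all genes with a mean of 1 FPKM or more, with a Benjamini-Hochberg adjusted p of 0.05 as the threshold, and a gene past it is said to have passed the test. KO and WT were compared over 2 animals each, a design in which an exact two-sided permutation test of 1 gene cannot go below p = 0.3333.

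SIRT6 itself stood in heart at 8.53 and 12.4 FPKM in KO and at 6.41 and 8.29 in WT. Its limma adjusted p ran from 0.54 (kidney) to 0.94 (lung) over the 7 tissues, so its gene-level FPKM does not check the genotype labels. The hearts carried the markers of heart muscle, with 7 cardiomyocyte genes (among them TNNT2, TNNI3 and MYBPC3) summing to 8750 to 11200 FPKM. Some marker sums did not overlap between the KO and WT hearts. The sum of 5 erythroid genes, 935 and 243 FPKM against 3530 and 5490, followed the adult globin HBB, which fell (−3.75, limma adjusted p = 0.025), while the embryonic globin HBZ rose (3.81, adjusted p = 0.0085) and 4 of the 5 had a change above 0. A sum of 6 macrophage genes was 10.4 and 27.3 FPKM against 113 and 75 (0 passed with limma, 4 at an unadjusted p under 0.05). The 6 endothelial genes summed to 122 FPKM in KO2 and to 307 to 443 in the others. The part of these differences in the results below was not tested. In bulk tissue, fewer cells of a type and less RNA per cell cannot be told apart.

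In the WT newborns the 8 genes fell into a heart group and a group shared by heart and muscle. NPPA was highest in heart (63.1 FPKM in WT2 and 103 in WT3), then brain (3.38 and 11.4), with every other WT library at or below 0.56. It was listed at 0 in all 8 newborn muscle libraries. NPPB stood at 40.8 and 30.3 FPKM in WT heart and at no more than 0.336 in any WT library of another tissue. The neighbours in the order of tissues below brain for NPPA, and below heart for NPPB, overlapped in their libraries and cannot be ranked.

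ACTC1, the actin of heart muscle, stood at 8580 and 4540 FPKM in WT heart and at 79.1 and 269 in WT muscle. Its WT libraries of lung, kidney, thymus and liver overlapped, at 6.68 FPKM or less. Brain had the lowest mean (0.572 and 0.452 FPKM), but its libraries overlapped those of liver and thymus, and ACTC1 was listed at 0 in the WT3 liver. ACTA1 followed the reverse order, with 46200 and 36900 FPKM in muscle and 933 and 2150 in heart. Brain came next at 5.14 and 5.84 FPKM, while the libraries of lung (0.723 to 2.22) overlapped narrowly with thymus, and thymus, kidney and liver overlapped under 0.758. Skeletal actin thus took 9.81% of the summed ACTA1 and ACTC1 signal in the WT2 heart and 32.2% in the WT3 heart, against 99.8% and 99.3% in their muscle. The coding sequences of these actins are similar, so some reads may have been split between them by the counting, and both levels carry that uncertainty.

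FHL2, a LIM domain protein of the sarcomere that restrains hypertrophic signalling, was at 840 and 914 FPKM in WT heart. Kidney, thymus and muscle followed with overlapping libraries from 9.77 to 19.6 FPKM. ANKRD1, an ankyrin repeat protein that links titin to gene control, was at 886 FPKM in the WT2 heart but 163 in the WT3 heart, and at 28 or less in WT libraries elsewhere. NRAP, which helps assemble myofibrils, and XIRP1, an actin-binding Xin repeat protein of cell junctions, were the genes of muscle and heart together. NRAP stood at 193 and 268 FPKM in WT muscle and at 166 and 36.1 in WT heart. XIRP1 stood at 57.4 and 96.4 FPKM in WT muscle and at 115 and 36.2 in WT heart, ranges that overlapped. No WT library of another tissue held more than 0.294 FPKM of either.

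**Figure D1:**
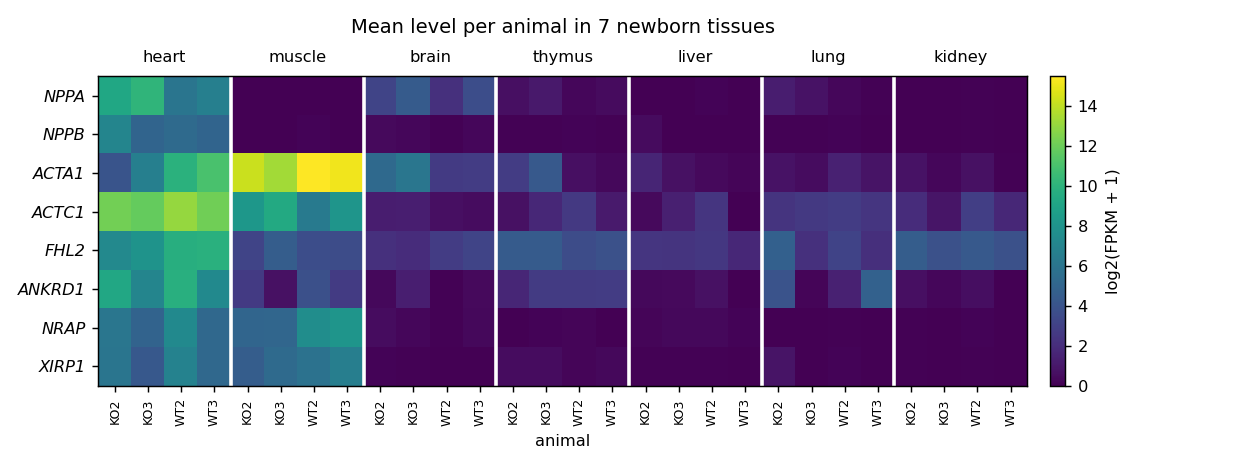
Heat map of the 8 genes (rows) in 4 animals of each of 7 newborn tissues (columns), coloured by log2(FPKM + 1) of the mean of an animal's 2 libraries. NPPA and NPPB are bright in heart only, apart from a weaker NPPA signal in brain, while ACTA1, ACTC1, NRAP and XIRP1 are bright in heart and muscle.

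WT heart was compared with WT muscle. The WT heart values also entered the choice of genes through the KO comparison, and the set was named for cardiac genes. NPPA and NPPB reached the level filter through heart alone. The counts and adjusted p values of the set are therefore a description, and nothing is read from them. Of the 8 genes, 6 passed the test, against 10.9% of all 12247 genes tested. Among them, 5 were higher in heart (5.2% of all genes). NPPA and NPPB, at 0 and at 0.145 FPKM or less in WT muscle, were higher by 6.35 (SE 0.34) and 5.09 (SE 0.31) on the log2 scale, values given as a description. FHL2 was higher by 6.16 (SE 0.28, limma adjusted p = 1.8e-05), ACTC1 by 5.41 (SE 0.57, adjusted p = 0.0011) and ANKRD1 by 5.33 (SE 0.74, adjusted p = 0.0042). ACTA1 was the 1 gene of the set lower in heart (5.68% of all genes), at −4.87 (SE 0.39, adjusted p = 0.00028). NRAP (−1.54, adjusted p = 0.18) and XIRP1 (−0.20, adjusted p = 0.86) did not pass. WT2 and WT3 each gave both tissues, and with the animal as a block 2419 genes passed in place of 1333, while the count in the set remained 6. With no level filter 3 of the 8 passed, since ACTA1, ACTC1 and ANKRD1 moved to adjusted p values of 0.053, 0.055 and 0.082. Without the WT2 heart, which leaves a single WT heart, the NRAP change was −2.62.

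Genes of the hormone pathway were compared in the same WT samples. CORIN, the protease that activates atrial natriuretic peptide, was higher in heart by 3.06 (limma adjusted p = 0.0075), and MME, which encodes neprilysin, was lower by −2.75 (adjusted p = 0.0012). These were the 2 of 9 tested pathway genes that passed. The guanylyl cyclase receptors did not, with NPR1 at −0.13 (adjusted p = 0.9) and NPR2 at 0.04 (adjusted p = 0.96). Among 13 cardiac transcription factors 8 were higher in heart and 2 lower. GATA4, GATA6, TBX5, TBX20, HAND1, HAND2 and IRX4 missed the level filter in the newborn muscle comparison and were tested here through heart. The count of higher genes is therefore a description. GATA4, a partner of the natriuretic promoters, was higher by 5.11, also a description.

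In the hearts, NPPA was the gene with KO above WT. KO2 held 609 FPKM and KO3 1130, while WT2 held 63.1 and WT3 103. The means were 869 ± 367 in KO and 82.9 ± 28 in WT (SD, n = 2 each). The lowest KO library, at 607 FPKM, was far above the highest WT library, at 103. On the log2(FPKM + 1) scale the difference was 3.35 (SE 0.39), or 10.2-fold.

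NPPB, encoded beside NPPA (the 2 genes are neighbours in the RefSeq table of the T2T-MFA8v1.1 assembly), did not share that pattern. KO2 held 130 FPKM and KO3 30.2, while the WT hearts held 40.8 and 30.3. KO2 alone was high, and KO3 was level with WT3. The log2 difference of 0.83 (SE 0.54) turned to −0.20 without KO2. The ratio of NPPA to NPPB in FPKM was 4.71 in KO2 and 37.4 in KO3, against 1.55 in WT2 and 3.39 in WT3.

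ACTA1 had the largest difference of the set and was lower in the KO hearts. KO2 held 15.3 FPKM and KO3 104, while WT2 held 933 and WT3 2150, with means of 59.7 ± 62.7 and 1540 ± 862 (SD, n = 2 each). The genotypes did not overlap, and within each the animals differed several-fold. The log2 difference was −5.09 (SE 0.65), or 34.2-fold lower in KO, and ranged from −6.44 to −3.75 as each animal was left out.

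ACTC1, the main heart actin, was at 4650 and 3590 FPKM in the KO hearts, and the WT hearts held 8580 and 4540. WT2 stood apart, and the KO and WT libraries overlapped. The log2 difference was −0.61 (SE 0.36), and −0.15 without WT2. Skeletal actin made up 0.328% of the summed signal of both actins in KO2 and 2.81% in KO3, against 9.81% and 32.2% in WT.

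FHL2 stood at 159 and 245 FPKM in the KO hearts and at 840 and 914 in the WT hearts, means of 202 ± 61.0 and 877 ± 52.5 (SD, n = 2 each). All 4 KO libraries lay below all 4 WT libraries. The log2 difference was −2.15 (SE 0.34), or 4.42-fold lower in KO. The shift of ACTA1 and FHL2 was thus opposite in sign to that of NPPA.

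In the remaining stress genes both animals numbered 2 were high. ANKRD1 stood at 626 FPKM in KO2 and 886 in WT2, against 129 in KO3 and 163 in WT3. NRAP stood at 66.9 and 166 FPKM in animals 2 and at 29.5 and 36.1 in animals 3. XIRP1 stood at 64.9 and 115 FPKM in animals 2 and at 18 and 36.2 in animals 3. Nothing in the labels links animals of the same number across genotypes. The log2 differences between genotypes were −0.42 (SE 0.72) for ANKRD1, −0.79 (SE 0.59) for NRAP and −0.89 (SE 0.59) for XIRP1. Their signs turned when 1 animal was left out, to 0.72 without KO3 and 0.80 without WT2 for ANKRD1, 0.29 without WT2 for NRAP and 0.0049 without KO3 for XIRP1.

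Of the 8 genes in heart, 1 had every KO library above every WT library and 2 had every KO library below, while 5 overlapped. Over the 12256 genes tested, these shares were 12.6% and 10.5%, and 22 genes (0.18%) passed the limma test, 0.106% higher and 0.0734% lower. The set was chosen on this contrast, and nothing is read from its counts.

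**Figure D2:**
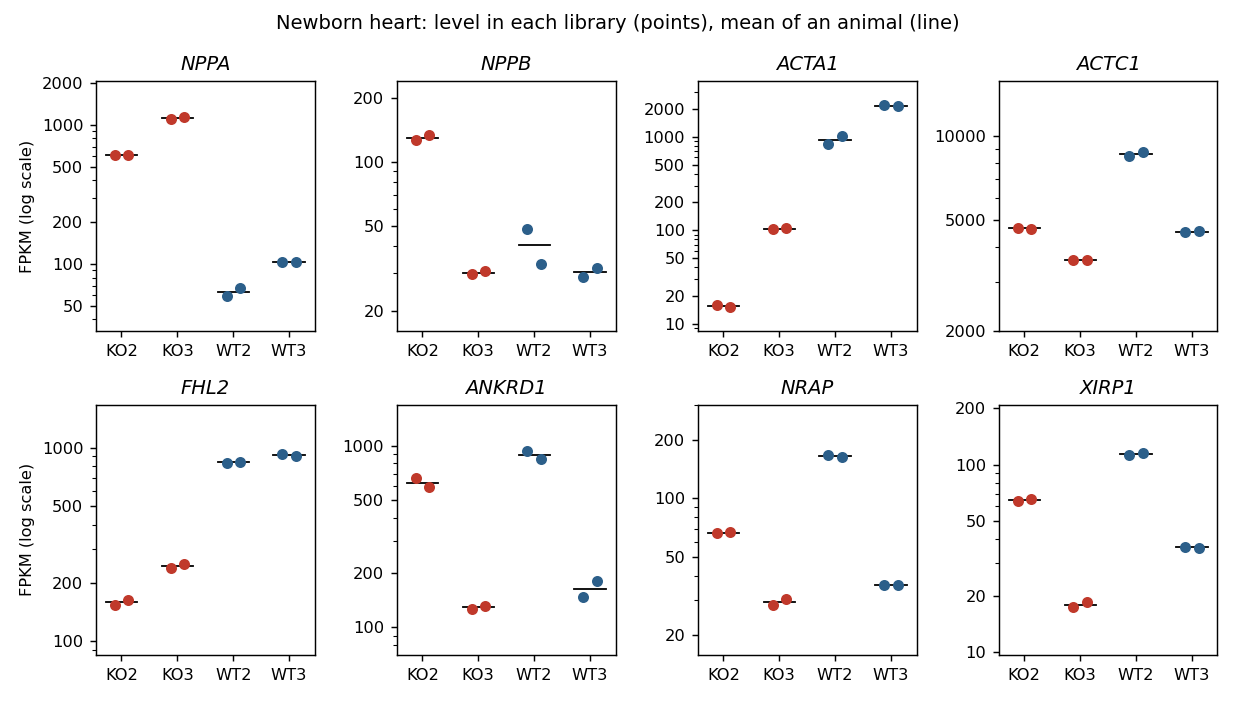
FPKM (log axis) of the 8 genes in each newborn heart library, with 2 points per animal and a line at the animal's mean, KO in red and WT in blue. NPPA is higher in both KO animals (609 and 1130 against 63.1 and 103), ACTA1 and FHL2 are lower in both, and ANKRD1, NRAP and XIRP1 are higher in the animals numbered 2 of both genotypes.

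The other heart genes of the natriuretic pathway did not pass the test. Among 11 listed genes 8 were tested, and 0 passed with limma (0 at an unadjusted p under 0.05). Their median log2 change was −0.39, against −0.06 over all genes. The receptor NPR1 was at 6.57 and 15.7 FPKM in the KO hearts against 9.62 and 22.6, and NPR2 at 4.95 and 7.60 against 5.56 and 8.42. The clearance receptor NPR3 stood at 0.624 and 3.59 against 2.32 and 2.34. The processing proteases stood at 14.4 and 16.5 against 31.2 and 13.4 (CORIN), 15.3 and 21.0 against 27.3 and 23.7 (FURIN), and 1.35 and 3.45 against 5.20 and 4.71 (PCSK6). PRKG1, the kinase that acts on the cyclic GMP signal, stood at 2.92 and 3.54 against 5.38 and 3.8. PDE5A, the phosphodiesterase that ends this signal, stood at 1.58 and 3.25 against 3.67 and 2.88.

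The Z-disc, the plate that anchors thin filaments, was covered by 20 genes, and the actin family with its thin filament partners by 12 tested genes. None of either list passed with limma (2 and 3 at an unadjusted p under 0.05), and their median log2 changes were −0.34 and −0.30. CSRP3, the muscle LIM protein, was at 1340 and 1010 FPKM in the KO hearts against 1440 and 611. ANKRD2 and ANKRD23, relatives of ANKRD1, stood at 1.60 and 0.815 against 2.03 and 1.57 and at 4.81 and 5.28 against 11.3 and 8.26. ACTA2, the smooth muscle actin, stood at 51.0 and 59.4 against 166 and 157 (log2 change −1.54, limma adjusted p = 0.11). ACTG2, the other smooth muscle actin, stood at 3.79 and 3.14 against 10.8 and 8.22 (adjusted p = 0.37). Of the 6 smooth muscle markers 0 passed (3 at an unadjusted p under 0.05), 5 had a change below 0 and the median was −0.97. Nonmuscle ACTB stood at 261 and 576 against 609 and 531 (adjusted p = 0.79).

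Target genes of muscle and load signalling, and cardiac transcription factors, were tested in the same hearts. Of 13 targets of serum response factor (SRF) and its MRTF partners, 11 targets of YAP and TAZ, 13 cardiac transcription factors and 10 load response genes, 0 passed with limma (1, 2, 0 and 3 at an unadjusted p under 0.05). Their median log2 changes were −0.23, −0.02, −0.26 and −0.33. SRF was at 37.7 and 27.5 FPKM in the KO hearts against 49.6 and 28.9, the smooth muscle light chain MYL9 at 1100 and 791 against 650 and 702, and TAGLN, transgelin, at 92.9 and 114 against 189 and 151. The matrix genes CCN1 and CCN2, both YAP targets, were at 68.7 and 19.7 against 35.1 and 28.1 and at 97.2 and 32.1 against 77.3 and 40.6. AMOTL1, another YAP target, was at 3.36 and 4.65 against 5.89 and 5.43 (limma adjusted p = 0.89). Of the transcription factors that act on the NPPA promoter, GATA4 was at 34.6 and 36.5 against 32.5 and 36.1, and GATA6 at 34.9 and 33.8 against 39.3 and 31. RCAN1, an inhibitor of calcineurin, was at 6.83 and 5.88 against 28.8 and 9.9 (adjusted p = 0.41). MYH6, the alpha myosin heavy chain, stood at 3.09 and 33.2 against 26.8 and 415 (adjusted p = 0.3), which spread widely within both genotypes.

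Chamber markers are given because NPPA and the actins differ between atria and ventricles. The 11 atrial markers summed to 4230 and 2300 FPKM in the KO hearts and to 1890 and 1340 in the WT hearts. MYL7, the atrial regulatory light chain, stood at 2420 and 1010 against 742 and 689 (limma adjusted p = 0.36), and MYL4 at 1720 and 1180 against 1050 and 562 (adjusted p = 0.46). SLN, sarcolipin, was at 0.332 to 1.68 in all 4 animals, and BMP10, named after its values were seen, was listed at 0 in KO2 and WT2. None of the 11 passed (2 at an unadjusted p under 0.05). Of these, 6 had a change above 0, and the list's median log2 change was 0.17, against −0.06 over all genes. The 5 ventricular markers summed to 12900 and 8050 against 18000 and 10800, led by MYL2 and MYL3, with 0 of 5 past the threshold (0 unadjusted). The atrial sum, mostly MYL7 and MYL4, was thus higher in both KO hearts, while the list as a whole was mixed. Its part in the NPPA and ACTA1 values was not tested. Sums of 12 skeletal muscle markers overlapped, at 2360 and 1990 FPKM in the KO hearts against 2250 and 1530. CKM, a creatine kinase also made in heart, gave most of them, and MYLPF was listed at 0 in KO2, WT2 and WT3. Of the 6 skeletal markers tested 0 passed with limma (2 at an unadjusted p under 0.05). Of these, 5 had a change above 0, and the median was 0.14.

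In newborn skeletal muscle, ACTA1 was again lower in KO. KO2 held 19700 FPKM and KO3 10300, while WT2 held 46200 and WT3 36900. The libraries did not overlap, with a log2 difference of −1.53 (SE 0.27) given without a test. Under quantile normalisation the difference was −0.50. ACTA1 is among the highest genes of the tissue, and the cause of the smaller value was not tested. NPPA was listed at 0 in every muscle library and NPPB stood at 0.145 or less, so neither reached the level filter, and 6 of the 8 genes did.

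Of the 5 genes tested in muscle 1 passed, against 2.32% of 12087 genes (1.58% lower and 0.745% higher). NRAP fell, from 193 and 268 FPKM in WT to 31.7 and 34.0 in KO. Its log2 change was −2.76 (SE 0.43, limma adjusted p = 0.00051), or 6.75-fold lower, and all 4 KO libraries lay below all 4 WT libraries. The call was lost under quantile normalisation (adjusted p = 0.06) and with no level filter (0.4).

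ACTC1 stood at 298 and 689 FPKM in KO muscle and at 79.1 and 269 in WT muscle. Its 4 KO libraries all lay above the 4 WT libraries (as for 16.2% of all genes), the order opposite to ACTA1, but KO2 at 298 was near WT3 at 269. The log2 change of 1.63 (SE 0.49, limma adjusted p = 0.084) did not pass. Without WT3, which leaves a single WT animal, the change was 2.50. Skeletal actin made up 98.5% and 93.7% of both actins in KO and 99.8% and 99.3% in WT.

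XIRP1 stood at 22.6 and 39.4 FPKM in KO muscle and at 57.4 and 96.4 in WT (−1.29, SE 0.47, limma adjusted p = 0.18). ANKRD1 stood at 5.17 and 0.607 against 12.7 and 5.51 (−1.59, SE 0.57, adjusted p = 0.18). Neither passed, although in both the KO libraries lay below the WT libraries, as they did for 15.4% of all genes. FHL2 stood at 8.10 and 22.4 against 11.5 and 11.2 (0.25, SE 0.51, adjusted p = 0.92), with KO3 high and KO2 low, and its interval of −0.81 to 1.30 covers changes of both signs.

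Some relatives of the set changed in KO muscle. ANKRD23, the Z-disc gene of the ANKRD1 family, fell by 2.98 (limma adjusted p = 0.00012), from 452 and 544 FPKM in WT to 79.8 and 48.0 in KO. It was the 1 of 19 Z-disc genes that passed, and the list's median log2 change was −0.26 against 0.00 over all genes. In the actin and thin filament list 2 of 13 fell and 0 rose, with a median of −1.07. LMOD2, leiomodin, which elongates thin filaments, stood at 28.7 and 75.1 against 347 and 238 (adjusted p = 0.0026), and ACTG2 at 2.59 and 5.77 against 33.0 and 11.4 (adjusted p = 0.039).

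Among 13 SRF and MRTF targets TAGLN (−1.82, limma adjusted p = 0.021) and CNN1 (−1.96, adjusted p = 0.035), genes of smooth muscle, fell. CCN2 was the 1 of 10 YAP and TAZ targets, and of 10 load response genes, to fall (adjusted p = 0.011), and of 6 cardiac transcription factors 0 passed (0 unadjusted). CCN2 went from 456 and 43.4 FPKM in WT to 13.7 and 19.9 in KO. Of 9 natriuretic pathway genes 0 passed with limma (1 at an unadjusted p under 0.05, FURIN at 8.57 and 10.1 against 29.1 and 33.6, adjusted p = 0.066). The 12 skeletal muscle markers summed to 41600 and 34000 FPKM in the KO muscles against 42800 and 37900, with none at 0. Within them 2 rose and 2 fell. The embryonic myosin MYH3 rose from 14.3 and 4.16 to 468 and 306 FPKM (adjusted p = 1.7e-07), the perinatal myosin MYH8 rose (adjusted p = 0.0067), and CASQ1 and ACTN3 fell (adjusted p = 0.034 and 0.0077), these 4 being named after their values were seen. Of 6 smooth muscle markers 3 fell (ACTG2, TAGLN and CNN1) and 1 had a change above 0, DES, desmin of all muscle types, with a list median of −1.62. Their sum, mostly DES, overlapped at 1970 and 2220 FPKM against 2650 and 1970. Other cell types moved too. A sum of 6 macrophage genes was 1.53 and 23.5 FPKM against 58.8 and 34, with 2 of 6 past the threshold (C1QA and C1QB, both lower), HBB fell (−3.29, adjusted p = 1.2e-05) and HBZ rose (3.8, adjusted p = 5.8e-05). The part of these cell types in the muscle results was not tested.

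Fetal muscle gave a view of the same genes in normal development. Between months 2 and 4 of gestation the median gene shifted by 0.16 on the log2 scale, and log2 changes in these paragraphs are relative to it, while the adjusted p tests the change before that subtraction. Of the 8 genes 6 reached the level filter and 4 passed, against 37.9% of 12352 genes (22.3% higher at month 4 and 15.7% lower). ACTC1 fell, from 3090 and 2340 FPKM at month 2 to 572 and 394 at month 4 (−2.66, SE 0.24, limma adjusted p = 1e-04). NRAP rose, from 0.667 and 0.459 FPKM to 71.6 and 67.8 (5.34, SE 0.19). It lay under 1 FPKM at month 2 and reached the level filter through month 4 alone. Its change is a description, and nothing is read from its place among the 4. By level, ACTC1 fell and NRAP rose with fetal age.

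ACTA1 rose, from 10400 and 9130 FPKM to 16900 and 30900 (1.06, SE 0.33, limma adjusted p = 0.018). XIRP1 rose, from 26.1 and 22.8 to 34.9 and 38.9 (0.41, SE 0.18, adjusted p = 0.028). Without month 2 library 1 or library 2 both calls were lost, at adjusted p values of 0.29 and 0.41 for ACTA1 and 0.13 and 0.29 for XIRP1. They were also lost with no level filter (0.24 and 0.064). Skeletal actin made up 77.1% and 79.6% of both actins at month 2 and 96.7% and 98.7% at month 4. FHL2 stood at 26.4 and 26.1 FPKM, then 18.2 and 23.0 (adjusted p = 0.16), and ANKRD1 at 3.28 and 2.92, then 5.28 and 2.63 (adjusted p = 0.55). Their calls depended on month 4 library 2. Without it a single library of that month is left, so nothing is read from that fit. NPPA was listed at 0 in 3 of the 4 libraries and at 1.76 FPKM in month 2 library 1. NPPB reached no more than 0.352.

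Other Z-disc genes were also tested in fetal muscle, with 14 of 19 higher at month 4 and 1 lower, and a median of 1.05. ANKRD23 rose from 13.1 and 14.7 FPKM to 99.7 and 158 (2.92, limma adjusted p = 2.2e-05), and FLNC, the filamin of muscle, from 27.4 and 30.5 to 225 and 208 (2.70, adjusted p = 6.8e-06). MYOZ2, the heart and slow muscle myozenin, was the gene that fell (−0.89, adjusted p = 0.016), named after its value was seen. LMOD2 rose from 19.7 and 15.5 to 48.6 and 55.0 (1.35, adjusted p = 0.00034), among 5 of 13 actin and thin filament genes that rose and 0 that fell. Of the SRF, YAP, transcription factor and load lists, 3 of 13, 4 of 10, 3 of 7 and 3 of 10 rose and 1, 0, 0 and 1 fell. In the natriuretic list 4 of 10 rose and 0 fell, with NPR1 at 0.40 (adjusted p = 0.038). MME, at 1.42, and LATS2, a YAP target, lay under 1 FPKM at month 2. Both reached the level filter through month 4, so their changes are a description. Other cell types moved between the months as well. Higher were 4 of 7 fibroblast, 4 of 6 endothelial and 4 of 4 adipocyte markers, and 3 of 6 macrophage markers were lower. ADIPOQ, PLIN1, CIDEC and the fibroblast gene PDGFRA lay under 1 FPKM at month 2 and reached the filter through month 4. Nothing is read from the adipocyte count. Month 4 library 1 stood apart in smooth muscle genes, with ACTG2 at 205 FPKM against 9.24 in library 2, TAGLN at 604 against 96 and MYH11 at 63.2 against 6.57. The part of these markers in the fetal results was not tested. Over all genes 58.7% of the calls were higher at month 4, and 46.8% under quantile normalisation. Whether each fetal library is from its own fetus is not stated, and the p-values here measure the spread between libraries alone, which may be technical.

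The fetal and newborn tables were scaled separately, so their levels were set side by side without a test. NRAP was at 67.8 to 71.6 FPKM in month 4 muscle, 193 to 270 in newborn WT libraries and 31.7 to 34.6 in newborn KO libraries. ACTC1 was at 394 to 572 in month 4 muscle, 78.7 to 274 in newborn WT and 298 to 697 in newborn KO. ACTA1 was at 16900 to 30900 in month 4 muscle, 36800 to 46900 in newborn WT and 10100 to 20000 in newborn KO. These 3 genes were put together after their values were seen, and ACTA1 was chosen on its newborn values, so nothing is read from their order.

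**Figure D3:**
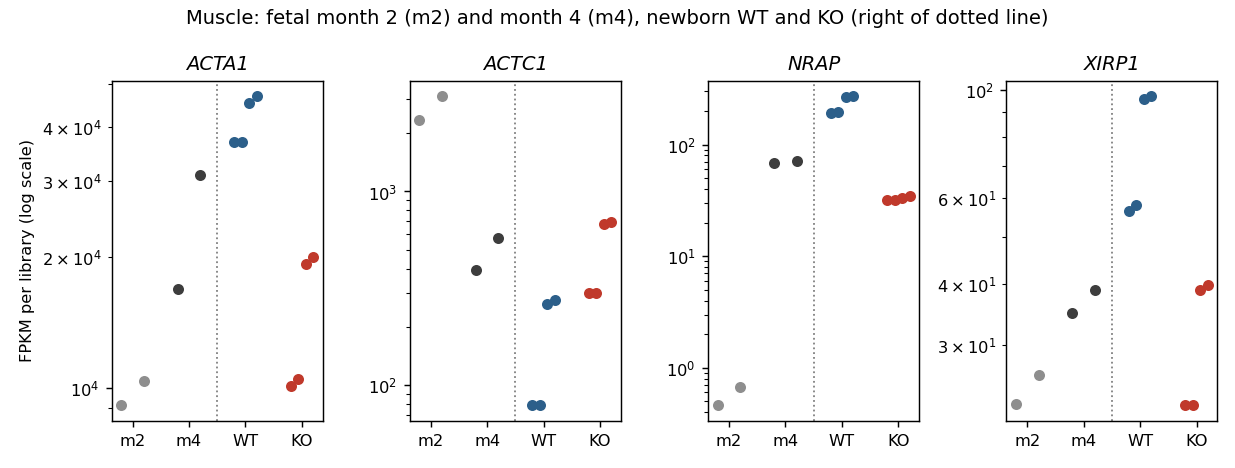
FPKM (log axis) of ACTA1, ACTC1, NRAP and XIRP1 in each muscle library, sorted by value within a group: fetal month 2 and month 4 (grey and black, 2 libraries each) left of the dotted line, newborn WT (blue) and KO (red, 4 libraries each) right of it. ACTC1 falls from 3090 and 2340 to 572 and 394 FPKM between the fetal months and NRAP rises, and newborn KO lies above WT for ACTC1 and below it for the other 3 genes.

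Outside heart and muscle, ACTA1 was higher in KO in several tissues. The KO brains held 38.5 and 66.4 FPKM and the WT brains 5.14 and 5.84. The KO thymus samples held 5.63 and 19.3 and the WT samples 0.572 and 0.269. In both tissues every KO library lay above every WT library, as for 10.7% of all genes in brain (28.2% lay below) and 9.81% in thymus (19.8% below), shares from which nothing is read since ACTA1 was chosen on these values. All-gene medians in brain and thymus were −0.20 and −0.21, and relative to them the log2 differences were 3.19 (SE 0.37) and 3.25 (SE 0.55). With a pseudocount of 0.1 FPKM the thymus difference before that subtraction was 4.43 in place of 3.04.

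The KO livers held 2.04 and 0.617 FPKM of ACTA1 and the WT livers 0.289 and 0.156, also without overlap (11.4% of liver genes lay above in KO and 25% below). Lung values, 0.72 and 0.44 in KO with 1.71 and 0.794 in WT, overlapped between libraries (in 8.04% of lung genes KO lay above and in 20.6% below). Kidney values, 0.715 and 0.189 in KO with 0.625 and 0.0571 in WT, overlapped as well (17.1% of kidney genes lay above in KO and 23.7% below). These levels lay near or below 1 FPKM. The sign of the ACTA1 difference was thus negative in heart and muscle and positive in brain, thymus and liver.

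Skeletal muscle markers were read in the same libraries. In brain 12 such genes, without ACTA1, summed to 59.9 and 80.0 FPKM in KO and to 12.4 and 9.37 in WT, and 10 of the 12 were higher in both KO animals. CKM, muscle creatine kinase, stood at 12.1 and 17.9 against 0.342 and 0.0306, MYLPF, a fast light chain, at 9.83 and 16.4 against 0.292 and 0.159, and TNNT3, fast troponin T, at 6.54 and 9.31 against 0.158 and 0. Other non-neural markers were higher in KO2 brain, where 7 fibroblast genes summed to 278 FPKM against 45.2 to 63.1 in the others. In thymus the 12 skeletal genes summed to 12.4 and 147 against 10.8 and 7.31, with 7 of 12 higher in both KO animals. There KO3 alone was high, with MYLPF at 35.3 FPKM against 0.0981 in KO2, while ACTA1 was also 5.63 in KO2. In liver the sums were 9.94 and 7.25 against 20.8 and 14.6, the order opposite to ACTA1, with 5 of 12 higher and 2 lower in both KO animals. In lung, where ACTA1 was not higher in KO, 8 of 12 were higher in both KO animals, and the sums were 9.83 and 49.4 against 9.92 and 6.09. The share of all genes higher in both KO animals was not counted. By library, a stricter order, KO lay above WT for 10.7% of genes in brain, 9.81% in thymus, 11.4% in liver and 8.04% in lung. Nothing is read from the marker counts. The part of skeletal muscle RNA in the ACTA1 values of brain and thymus was not tested.

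**Figure D4:**
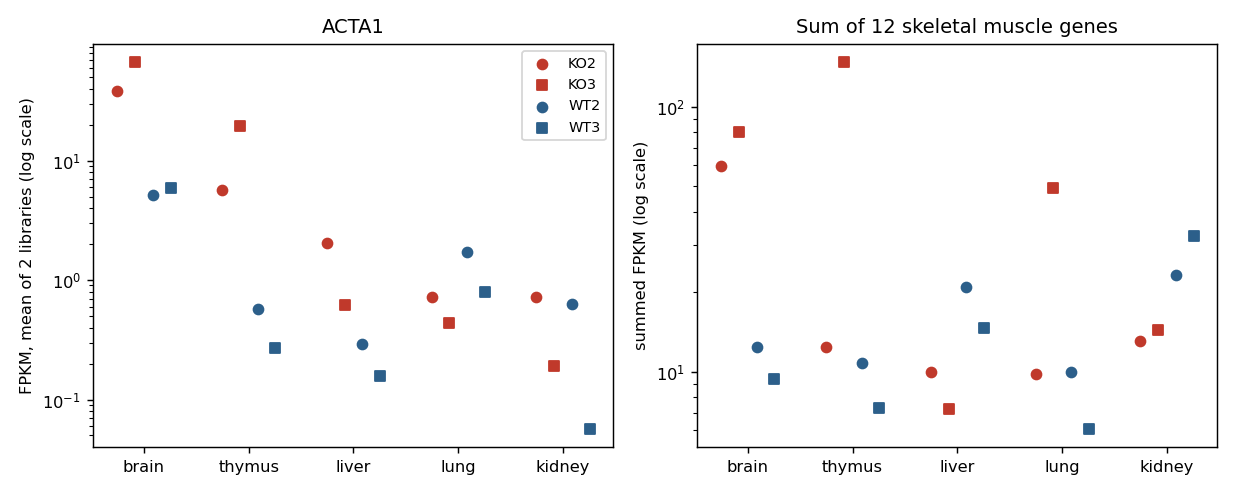
ACTA1 (left) and the sum of 12 skeletal muscle genes (right) in 5 newborn tissues, in FPKM on log axes, with 1 point per animal (mean of 2 libraries), KO in red and WT in blue. Both are higher in the 2 KO brains (ACTA1 at 38.5 and 66.4 against 5.14 and 5.84), while in thymus the sum is high in KO3 only (147) and in liver the sum is higher in WT.

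Wild-type fetal brain also held ACTA1, at 35.4 and 7.40 FPKM at month 2 and 22.7 and 33.2 at month 4. The 12 skeletal genes there summed to 53.4, 22.8, 35.7 and 45.2 FPKM, and 10 of the 12 were lowest in month 2 library 2, the library with the least ACTA1. ACTA1 did not pass between the months (log2 change 0.70, limma adjusted p = 0.53). Without month 2 library 1 the change was 1.76 and without library 2 it was −0.36, fits that leave a single month 2 library. Of the 4 genes of the set tested in fetal brain 0 passed with limma (0 at an unadjusted p under 0.05), against 4.01% of 13114 genes (3.28% higher at month 4 and 0.732% lower). ACTC1 was at 2.01, 1.27, 2.6 and 2.22 FPKM and FHL2 at 1.01, 2.22, 1.17 and 0.83 (adjusted p = 0.47 and 0.57). NPPA stood at 13 and 9.02 FPKM at month 2 and 8.41 and 9.38 at month 4 (−0.26, 95% interval −0.79 to 0.27, adjusted p = 0.59).

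The other genes of the set were tested in the 5 remaining newborn tissues where they reached the level filter, 12 tests in all. None passed with limma (1 at an unadjusted p under 0.05), against 0% of all genes in brain, 0.00772% in thymus, 1.1% in liver (0.262% higher and 0.836% lower), 0% in lung and 5.78% in kidney (1.02% higher and 4.76% lower). NPPA in the KO brains was at 7.91 and 20.4 FPKM, and in the WT brains at 3.38 and 11.4. Both animals numbered 3 were the higher of their genotype, and the libraries overlapped (1.11 relative to the median gene, SE 0.65, adjusted p = 0.53).

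FHL2 in the KO brains was at 3.41 and 2.87 FPKM, with 5.74 and 8.08 in the WT brains (−0.72 relative to the median gene, SE 0.31, limma adjusted p = 0.39), with every KO library below every WT library, as for 28.2% of brain genes. In thymus it stood at 21.2 and 20.9 against 11.1 and 13.4 (0.94 relative to the median gene, SE 0.41, adjusted p = 0.7), with the KO libraries above, as for 9.81% of thymus genes. Liver and kidney overlapped, at 2.30 to 4.76 and 13.5 to 22.6 FPKM per animal. In lung FHL2 was high in KO2 alone (25.8, 3.36, 7.66 and 3.17 FPKM, adjusted p = 0.87).

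ANKRD1 in lung varied more between animals than between genotypes, with 14.7 and 0.157 FPKM in the KO animals and 1.69 and 27.6 in the others (limma adjusted p = 0.9). In thymus it stood at 2.11 and 5.46 against 5.39 and 5.65 (adjusted p = 0.72). NPPA in lung stood at 1.32 and 0.721 against 0.206 and 0.0641, every KO library above every WT library (8.04% of lung genes), at levels under the filter. ACTC1 reached 6.38 FPKM or less per animal in thymus, liver, lung and kidney, with limma adjusted p values from 0.35 to 0.97. In brain it was under the filter, at 1.4 and 1.47 FPKM in KO with 0.572 and 0.452 in WT, and every KO library lay above every WT library (10.7% of brain genes). XIRP1 had that order in brain (0.0884 FPKM or less) and thymus (0.435 or less, 9.81% of thymus genes). NRAP, XIRP1 and NPPB reached 0.797 FPKM or less in every animal in these 5 tissues, and ANKRD1 1.46 or less in brain, liver and kidney.

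Genes with the most similar pattern to each member were ranked by Pearson's r of log2(FPKM + 1) over the 28 means of animal and tissue. These points share animals and tissues, and r mainly reads whether a gene is confined to heart or muscle, so it is given as a description. Within the set NRAP and XIRP1 were most alike (r = 0.989), NPPA and NPPB reached 0.897, and NPPA and ACTA1 0.211. NPPA was nearest to MTUS2 (0.957), the cardiac kinase TNNI3K (0.942) and GPR22 (0.923). NPPB was close to LRRC10 (0.979), a heart leucine-rich repeat protein, and TLL2 (0.969). ACTA1 was nearest to MURC (0.946), KLHL41 (0.941) and MYL1 (0.937). ACTC1 was nearest to the calcium store protein CASQ2 (0.985), MYOZ2 (0.98) and HSPB7 (0.975).

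FHL2 was nearest to the cardiac myosin-binding protein MYBPC3 (0.912), TLL2 (0.905) and phospholamban, PLN (0.885). ANKRD1 had the weakest best match, LRRC10 at 0.875, followed by TLL2 and PLN at 0.874. NRAP was nearest to LMOD2 (0.992), DUSP27 (0.986) and the M-band protein MYOM2 (0.975), and XIRP1 to DUSP27 (0.992), LMOD2 (0.984) and MYO18B (0.983). Over the 14 WT means alone, 8 of the 24 nearest genes were again among the nearest 3.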

How the data were processed

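RNA was taken from ground frozen tissue with TRIzol and RNeasy columns, made into TruSeq RNA libraries and sequenced on an Illumina instrument, per the labels' protocols. The authors deposited FPKM values for 28141 genes in a newborn table of 56 libraries and a fetal table of 8, made with tools that the submitters' processing notes list without their roles (Cufflinks 2.0.2, HISAT 0.1.6, CASAVA). Build, annotation and strand setting are not stated in the sources used here. FPKM keeps no read count, so absolute depth is unknown, no counting interval is given, and a 0 may be a failed estimate. Relative depth was estimated from the lowest values, against 1 WT3 library of each newborn tissue. It ran from 1.0 to 1.84 in heart, 0.946 to 1.95 in thymus, 0.59 to 1.0 in kidney and 0.847 to 1.07 in muscle. Of 11294 genes under a LOC name, 721 were given symbols from a RefSeq table (T2T-MFA8v1.1). CCN1 and CCN2 were read under their older names, and MYH7, NKX2-5, HBA1 and MT2A were not matched.

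The last number of a newborn title was read as a repeat library of 1 animal, and nothing states whether repeats are separate tissue pieces. Repeats were averaged as log2(FPKM + 1). Each comparison was fitted with limma 3.58.1 in R 4.3.3 (lmFit, eBayes with a trend) on genes averaging at least 1 FPKM. Results are limma's log2 change, standard error (SE) and Benjamini-Hochberg adjusted p over all genes tested, with 95% intervals. The fits were tested on simulated data. Named genes were the 8 members, SIRT6, the 3 genes most like each member, heart-expressed natriuretic pathway genes, and in other lists the first 3 genes and at most 4 that passed. One gene that this rule names is not reported here. The members and lists were chosen with earlier results of these data known. WT heart and muscle of 1 number came from 1 animal (deviations correlated at 0.287), which pairs them. No sequences were used here. Other settings tried were libraries as replicates, a replicate block, quantile normalisation, level filters of 5 FPKM and none, a pseudocount of 0.1, and leaving out single animals or libraries. Leaving one out leaves its group without replication, so calls in those fits are a description.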

Additional observations from a re-analysis of the deposited data

Results flagged for a closer look

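The KO difference of ACTA1 had opposite signs in different tissues. On the log2 scale it was −5.09 in heart and −1.53 in muscle, with every KO library below every WT library, and 2.98 in brain and 3.04 in thymus, with every KO library above every WT library. The same order held for 10.5% of all genes in heart, 15.4% in muscle, 10.7% in brain and 9.81% in thymus. The difference between tissues was not tested, and the gene was chosen on these values. By the mean of an animal, KO3 had the most ACTA1 and the highest skeletal muscle marker sum in brain (80.0 FPKM) and thymus (147). In the KO2 thymus ACTA1 was 5.63 FPKM against 0.572 and 0.269 in WT, while the marker sum was 12.4 against 10.8 and 7.31. In liver the sums were lower in KO (9.94 and 7.25 against 20.8 and 14.6), while ACTA1 was higher. The part of skeletal muscle RNA in these values was not tested.

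FHL2 had the KO libraries below the WT libraries in heart (−2.15, an order that 10.5% of heart genes share) and brain (−0.92, 28.2% of brain genes) and above them in thymus (0.74, 9.81% of thymus genes). Relative to the median gene the brain and thymus changes were −0.72 and 0.94. This difference between tissues was not tested, and the brain and thymus changes did not pass the test within their tissue.

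Among 58 groups of 4 libraries of these genes, 1 held a library far from the other 3. In KO liver 1 FHL2 library lay apart, with a gap of 0.88 of the group's range past the 95% critical value of Dixon's test. Chance gives about 1 such group in 20 for 4 independent values. Each group here was 2 libraries from each of 2 animals, so that rate need not hold.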

How the results depend on the processing

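Counts of genes past the threshold moved with the settings, and so did counts of members. In heart 22 genes passed, 6 with a pseudocount of 0.1, 0 with no level filter, a filter at 5 FPKM or quantile normalisation, 1539 with libraries as replicates, 226 with the replicate block, and 13 to 290 as each animal was left out (13 without KO2, 290 without KO3, 70 without WT2, 105 without WT3). Under quantile normalisation 1200 heart genes still had an unadjusted p under 0.05. The FHL2 heart difference was −2.68 under quantile normalisation. In muscle 281 genes passed, 0 with no filter, 180 at 5 FPKM, 14 with quantile normalisation, 2768 with libraries as replicates, and 103 to 367 as each animal was left out. Members past the threshold in muscle numbered 1, 0 with no filter or quantile normalisation, 3 with libraries as replicates, 2 with the replicate block, and 1 to 2 as each animal was left out.

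In fetal muscle 4687 genes passed, 2488 with no filter, 3012 at 5 FPKM, and 1905 to 6756 as each library was left out. The 4 members became 2 with no filter and 2 to 6 as each library was left out. In fetal brain 526 genes passed, 0 with no filter, 234 with quantile normalisation, and 0 to 1377 as each library was left out, where members numbered 0 to 1. The fetal brain numbers deviated in opposite directions (correlation −0.231), and a crossed replicate block, chosen after seeing the data, gave 1101 genes. In WT heart against muscle 1333 genes passed, 394 with no filter, 4837 with libraries as replicates, 2419 with the replicate block, and 552 to 663 as each sample was left out. The 6 members became 3 with no filter. Over the 5 other tissues 941 genes passed, 0 with no filter, 16486 with libraries as replicates, and 379 to 5258 as each animal was left out, and members numbered 0, or 2 with libraries as replicates. In kidney 17.6% of calls were higher in KO, and 31.5% under quantile normalisation.

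KO and WT animals of 1 number share only that number (deviation correlations −0.0968 to 0.0901), and the replicate block moved ACTC1 in muscle to an adjusted p of 0.043. Changes whose sign turned, none of the turned values past the threshold, are given with their range as each animal was left out. FHL2 ran from −0.43 to 0.93 in muscle, −0.17 to 0.63 in liver, −0.47 to 2.15 in lung and −0.25 to 0.45 in kidney. ACTC1 ran from −1.34 to 0.28 in thymus, −1.51 to 0.16 in liver (0.33 with a pseudocount of 0.1) and −0.29 to 0.092 in lung (0.094 with quantile normalisation), and ANKRD1 in lung from −2.93 to 0.84. As single libraries were left out, ANKRD1 ran from −0.17 to 0.62 in fetal muscle (−0.012 with quantile normalisation) and ACTA1 from −0.36 to 1.76 in fetal brain. XIRP1 ran from −1.02 to 0.62 in WT heart against muscle. The cause of these moves was not tested.

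With 2 animals a genotype, changes that miss the threshold are not shown to be absent. Absolute depth is unknown, so low levels carry no stated limit.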

Other observations

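Of the Z-disc list, BAG3, a chaperone partner that clears damaged filamin, was singled out after its values were seen. It stood at 533 FPKM in the KO2 heart against 28.6 in KO3, 45.5 in WT2 and 26 in WT3, and at 431 FPKM in KO2 muscle against 47.0, 79.1 and 85.0. CRYAB, a small heat shock protein of the Z-disc, stood at 4590 in the KO2 heart against 1830, 2430 and 1220, and at 1760 in KO2 muscle against 557, 851 and 842. KO2 was also the heart with the most NPPB (130 FPKM) and the least ACTA1 (15.3 FPKM). In muscle the least ACTA1 was in KO3 (10300 FPKM), with 19700 in KO2 and 46200 and 36900 in WT. Neither chaperone gene passed the limma test between genotypes (adjusted p = 0.57 and 0.7 in heart, 0.67 and 0.9 in muscle).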
